A study of Homo sapiens with 18 samples.

Results

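Histone genes were followed in the polyadenylated RNA of LNCaP cells. LNCaP is an established line of human prostate cancer that depends on androgen signalling. The members are all protein-coding genes of the count table named H1 with a number, H2AC, H2BC, H3C or H4C, each represented by its transcript with the highest total count. This gave 73 genes of 28084 in the table: 10 H1, 17 H2A, 18 H2B, 13 H3 and 15 H4 genes. Cells were kept for 48 h in one of 6 media, with 3 libraries each. A first group received M1 medium with IKK16 at 0.7 μmol/l, an inhibitor of the IκB kinases that free NF-κB to enter the nucleus. A second group received M1 medium with an equal amount of DMSO, the solvent. The others received M1 medium alone, M2 medium, M0 medium or control medium. M0, M1 and M2 media had been conditioned by unpolarised, M1-polarised or M2-polarised macrophages made from THP-1, a human monocytic leukaemia line, and were diluted 1:4. Every diluent and the control medium was RPMI with 10% heat-inactivated serum, and the control held neither macrophage products nor DMSO. The cells are labelled wild type, and the labels number the replicates without saying whether they are separate cultures. All p-values therefore measure the spread between these libraries, which may be technical.

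Histones package DNA. An octamer of the core histones H2A, H2B, H3 and H4 forms the nucleosome, and the linker histone H1 binds where DNA enters and leaves it. Most of these genes are replication-dependent: they lie in clusters, are transcribed during S phase, and give messenger RNAs that end in a conserved stem-loop without a poly(A) tail. The stem-loop is bound by SLBP, which is needed for cleavage of the 3′ end. H1-10 is replication-independent and gives polyadenylated messages, and a number of the clustered genes can also give polyadenylated transcripts. The libraries were made with poly-T beads, so the values below concern only transcripts that this selection retained. In bulk RNA, fewer cells carrying a transcript and less of it per cell cannot be told apart.

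Three-prime sequences of 4 members are shown because they represent the forms of the stem-loop found in members with enough counts to test. A 16-base stem-loop, spelled GG, 2 free bases, CTTTT, 1 free base, AG, 2 free bases and CC, was searched on the sense strand of GENCODE 29 transcript models, and capitals mark the match within 30 bases.
H2BC21: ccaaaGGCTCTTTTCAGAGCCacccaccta
H2BC4: ccaaaGGCTCTTTTAAGAGCCacccagata
H4C8: ccaaaGGCCCTTTTCAGGGCCgcccacttt
H2AC11: ccaacGGCTCTTTTCAGGGCCacccacgtc
The match was present in the models of 28 of 73 members. The form of H2BC21 was found in 16 models, the form of H2BC4 in 3, the form of H4C8 in 5 and the form of H2AC11 in 1. Of these models, 15 ran on for more than 300 bases after it, among them those of H2BC21 (1729 bases) and H2AC11 (1761 bases), whereas the H4C8 model ended 18 bases after it. Many models without a match hold only the coding sequence, so absence of the letters says nothing of the transcript in the cell.

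Members divided sharply by level. Of the 73 genes, 38 held enough counts to be tested, and 35 did not. These 35 had 82 to 116 counts in all in a group of 3 libraries, and 16 of them had no count in any library. Totals over all genes ran from 24193422.5 to 33801737.5 counts per library, so a count of 0 allows up to 3 counts, or 0.0888 to 0.124 CPM (counts scaled to library size). Floors of this kind cover counting error only. H2AC18, H2AC19, H3C14, H3C15, H4C14 and H4C15 were all listed at 0. Between 94.9% and 100% of the 100-base windows of these 6 models also occur in another histone gene, and how the authors treated reads that match several places is not given in the sources used here. The other members without a count were H1-7, H1-8, H2AC1, H2BC1, H2BC9, H2BC10, H3C7, H4C6, H4C7 and H4C13. Of their windows, 0% occur in another histone gene.

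Per kilobase of transcript, the abundant members over all 18 libraries included H2BC12 (mean level 320 CPM per kilobase), H1-10 (206), H1-2 (149), H2AC25 (51.3), H2AC6 (48.6), H2BC21 (34.5) and H2BC5 (20.3). H2BC12 and H2BC5 belong to the core histone H2B family and H2AC25 and H2AC6 to H2A. The order depends on the transcript length used. With GENCODE 29 lengths, H2AC25 stood at 29.3 and H2AC6 at 15.3 CPM per kilobase, and the H2BC12 length of 381 bases covers its coding sequence only.

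M1 medium changed the make-up of the polyadenylated histone pool. Against control, 20 of the 38 tested members rose and 8 fell (52.6% and 21.1%), where 32.9% of all 17027 genes tested rose and 31.9% fell. A member was called when its edgeR quasi-likelihood p, adjusted by Benjamini-Hochberg over all tested genes, was under 0.05. The median log2 fold change of the tested members was 0.51, and that of all tested genes was 0. By at least 2-fold, 10 members rose and 5 fell. The H4 genes rose in 4 of 4 tested, H2B in 7 of 12 with 2 lower, H2A in 5 of 11 with 4 lower, H3 in 3 of 6 with none lower, and H1 in 1 of 5 with 2 lower. A member with few counts was tested only where at least one group had enough of them, so these shares describe the tested genes and not all 73. Among the 26 members with at least 1 CPM in 3 libraries, 16 rose and 5 fell.

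The linker histones H1-10 and H1-2 moved in opposite directions in M1 medium. H1-10 (chromosome 3, 129314771 to 129316286) is a replication-independent linker histone. It had 189.8, 184 and 209 CPM in M1 medium, against 402, 458 and 349 CPM in control. All M1 libraries lay below all control libraries, and H1-10 was 2.08-fold lower (log2 fold change -1.05 ± 0.08 SE, edgeR adjusted p = 9.88e-11). An antisense gene, H1-10-AS1, overlaps it on the opposite strand and stood at 6.26 CPM in M1 medium and 8.55 CPM in control, and use of strand in counting is not given in the sources used here. H1-2 (chromosome 6, 26055740 to 26056470), a clustered linker histone, went the other way, with 123, 134 and 125 CPM in M1 medium and 88.8, 98.4 and 84.2 CPM in control (0.49 ± 0.08, edgeR adjusted p = 5.29e-06). H1-4 and H1-5, 2 further clustered linker histones, were each under 1 CPM in every M1 and control library and did not pass.

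**Figure D1:**
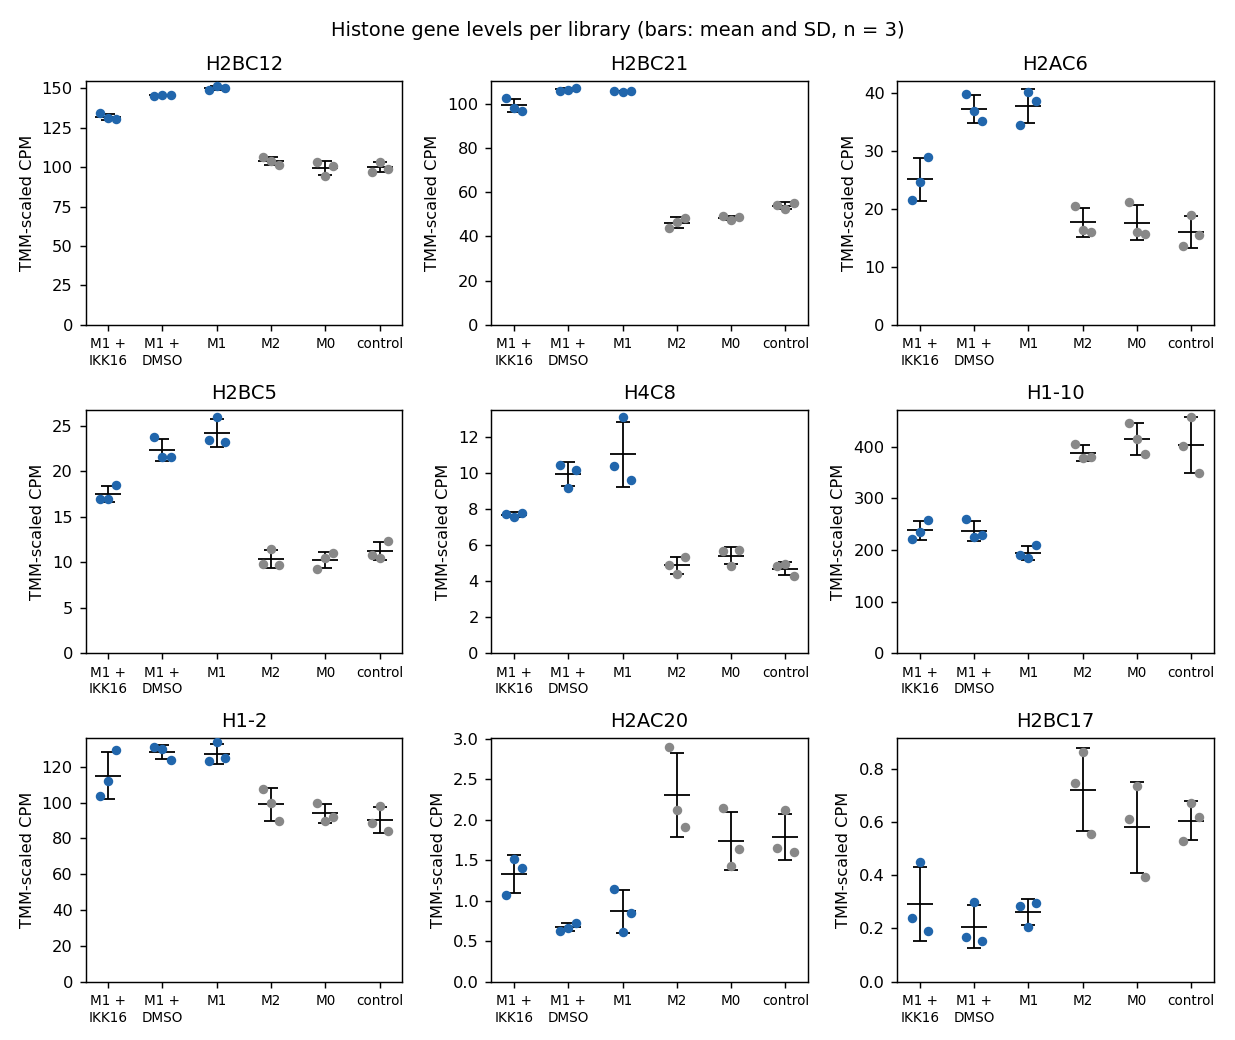
TMM-scaled CPM of 9 histone genes in each library, with M1-containing media in blue and the others in grey, and bars for the mean and SD of 3 libraries. H2BC12, H2BC21, H2AC6, H2BC5, H4C8 and H1-2 are higher and H1-10, H2AC20 and H2BC17 lower in M1 medium than in control, while the M2 and M0 libraries lie near the control ones.

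Among H2B genes the abundant members rose. H2BC12 had 149, 152 and 150.3 CPM in M1 medium and 97.1, 103 and 99.2 CPM in control (0.59 ± 0.05, edgeR adjusted p = 7.65e-11). H2BC21 (chromosome 1, 149884459 to 149886682) had 106, 105 and 106 CPM in M1 medium and 54.2, 52.2 and 55.1 CPM in control (0.97 ± 0.05, edgeR adjusted p = 2.41e-14). Both sets of libraries were narrow and far apart. H2BC5 had 23.4, 26.0 and 23.3 CPM in M1 medium against 10.8, 10.5 and 12.4 CPM in control (1.11 ± 0.09, edgeR adjusted p = 8.42e-11). H2BC18 had 13.2, 14.6 and 13.7 CPM in M1 medium against 5.68, 5.51 and 5.06 CPM in control (1.35 ± 0.10, edgeR adjusted p = 2.24e-11). H2BC18 shares exon positions with FCGR1A, an Fc receptor gene on the opposite strand, which stood at 2.00 CPM in M1 medium and 0.642 CPM in control; its part in the H2BC18 value was not tested. The largest rise of a tested H2B gene was that of H2BC4, with 7.92, 9.0 and 8.27 CPM in M1 medium and 2.77, 3.18 and 3.33 CPM in control (1.44 ± 0.15, edgeR adjusted p = 1.53e-08). H2BC8 and H2BC7 rose by log2 fold changes of 1.13 and 0.90. H2BC7 lost its call without control replicate 1 (0.77, edgeR adjusted p = 0.0577), control replicate 3 (0.78, 0.056) or M1 replicate 2 (0.79, 0.0524).

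The 2 H2B genes that moved down were low. H2BC17 had 0.285, 0.204 and 0.294 CPM in M1 medium and 0.528, 0.671 and 0.618 CPM in control (-1.19 ± 0.37, edgeR adjusted p = 0.00669). H2BC11 had 1.49, 1.43 and 0.948 CPM in M1 medium and 1.98, 2.12 and 1.67 CPM in control (-0.57 ± 0.22, edgeR adjusted p = 0.0254). Neither pair of groups overlapped. The call of H2BC11 was lost without control replicate 1 (-0.55, edgeR adjusted p = 0.0587), control replicate 2 (-0.50, 0.0848) or M1 replicate 3 (-0.39, 0.138).

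H2A genes split most evenly. H2AC6 (chromosome 6, 26124172 to 26124690) had 34.5, 40.2 and 38.6 CPM in M1 medium and 13.6, 19.0 and 15.4 CPM in control (1.24 ± 0.13, edgeR adjusted p = 8.56e-09), with a clear gap between the groups. H2AC7 rose by 1.19, H2AC8 by 0.82, H2AC13 by 0.58 and H2AC17 by 0.53 on the log2 scale. The H2AC13 call was lost without M1 replicate 2 (0.45, edgeR adjusted p = 0.0548), and 57.7% of its 100-base windows and 84% of those of H2AC17 also occur in another histone gene. H2AC20 had 1.14, 0.614 and 0.850 CPM in M1 medium and 1.65, 2.12 and 1.60 CPM in control (-1.03 ± 0.24, edgeR adjusted p = 0.000751). H2AC16 had 0.0633, 0.136 and 0.131 CPM in M1 medium and 0.330, 0.424 and 0.247 CPM in control (-1.56 ± 0.50, edgeR adjusted p = 0.00871). The groups of both genes stood apart. H2AC14 rested on 3, 1 and 2 counts in M1 medium and 12, 12 and 10 counts in control (-2.44 ± 0.66, edgeR adjusted p = 0.0025). From the summed counts its ratio of M1 medium to control was 0.17, with an exact 95% counting interval of 0.0585 to 0.411, and 80.9% of its windows are shared. H2AC11 fell by 0.48 on the log2 scale and lost its call without control replicate 1 (-0.42, edgeR adjusted p = 0.0834), control replicate 2 (-0.40, 0.0928) or M1 replicate 2 (-0.41, 0.0858). H2AC25, the most abundant H2A per kilobase, had 21.03, 24.3 and 19.3 CPM in M1 medium and 23.3, 29.2 and 21.1 CPM in control and did not pass (-0.18 ± 0.13, edgeR adjusted p = 0.236).

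Among H3 and H4 genes, which form the tetramer at the centre of the nucleosome, every called member rose. H3C4 had 8.80, 8.66 and 8.76 CPM in M1 medium and 4.75, 4.59 and 4.63 CPM in control (0.91 ± 0.11, edgeR adjusted p = 2.03e-07). H3C6 rose by 0.68 on the log2 scale, while H3C10 stood at 9.44, 8.32 and 9.06 CPM in M1 medium and 8.38, 8.12 and 7.53 CPM in control and did not pass (0.16 ± 0.09, edgeR adjusted p = 0.13). The span of H3C4 contains that of H2AC7 on the same strand, so reads of these genes may not be separate. H3C13 rose by 0.99 and lost its call without control replicate 1 (0.84, edgeR adjusted p = 0.0881) or M1 replicate 2 (0.67, 0.163). H4C8 (chromosome 6, 26285126 to 26285534), the most abundant H4 gene, had 10.4, 13.1 and 9.61 CPM in M1 medium and 4.82, 4.94 and 4.26 CPM in control (1.24 ± 0.12, edgeR adjusted p = 2.26e-09). H4C5 had the largest rise of the tested members, with 0.918, 1.43 and 1.24 CPM in M1 medium and 0.330, 0.565 and 0.216 CPM in control (1.70 ± 0.31, edgeR adjusted p = 5.05e-05). Every M1 library stood above every control library for both genes. H4C11 had 16, 13 and 10 counts in M1 medium and 4, 8 and 2 counts in control (1.44 ± 0.48, edgeR adjusted p = 0.0115), and lost its call without control replicate 3 (1.04, 0.0754). In M2 and M0 medium the H4C11 mean also lay above that of control, but neither difference passed. The log2 fold change was 1.40 ± 0.48 in M2 medium (edgeR adjusted p = 0.0718) and 0.93 ± 0.52 in M0 medium (0.245). The M2 and control libraries overlapped. Of the 100-base windows of H4C11, 77.7% also occur in another histone gene, and 51.3% of those of H3C13. H4C16 rose by 1.16 on the log2 scale. H4C2, which did not reach the minimum for testing, had 10, 8 and 6 counts in M1 medium and 0, 0 and 2 counts in control. Untested genes did not all go this way. H3C2 had 3, 2 and 2 counts in M1 medium and 2, 12 and 8 in control, and H4C3 had 1, 4 and 1 against 5, 1 and 6. These untested genes are named after their counts were seen.

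The members moved in opposite directions, and the make-up of the pool changed more than its size. Summed over 73 members, the level was 846 ± 9.96 CPM in M1 medium and 891 ± 77.3 CPM in control (SD, n = 3), with overlapping libraries. H1-10 alone held 28.5 to 30.3% of it with IKK16, 25.9 to 28.5% with DMSO and 21.7 to 24.4% in M1 medium, against 44.2 to 44.8% in M2 medium, 44.3 to 47.0% in M0 medium and 42.7 to 47.2% in control. The H2B genes summed to 273 ± 5.45 CPM with IKK16, 303 ± 1.46 with DMSO, 311 ± 3.40 in M1 medium, 177 ± 0.874 in M2 medium, 174 ± 5.31 in M0 medium and 181 ± 3.02 CPM in control. The H2A genes summed to 67.8 ± 8.43 CPM with IKK16, 82.7 ± 4.38 with DMSO and 79.0 ± 3.81 in M1 medium. They summed to 63.2 ± 6.95 CPM in M2 medium, 67.1 ± 9.93 in M0 medium and 56.2 ± 8.11 CPM in control. The H2A sums of M0 and M1 libraries overlapped. The H4 genes summed to 14.1 ± 2.18 CPM in M1 medium and 5.96 ± 0.602 CPM in control, and the H3 genes to 23.1 ± 0.347 and 16.5 ± 0.365 CPM. The H1 genes summed to 419 ± 12.6 CPM in M1 medium and 631 ± 69.2 CPM in control. These sums are descriptions without a test, and long or abundant transcripts weigh most in them.

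**Figure D2:**
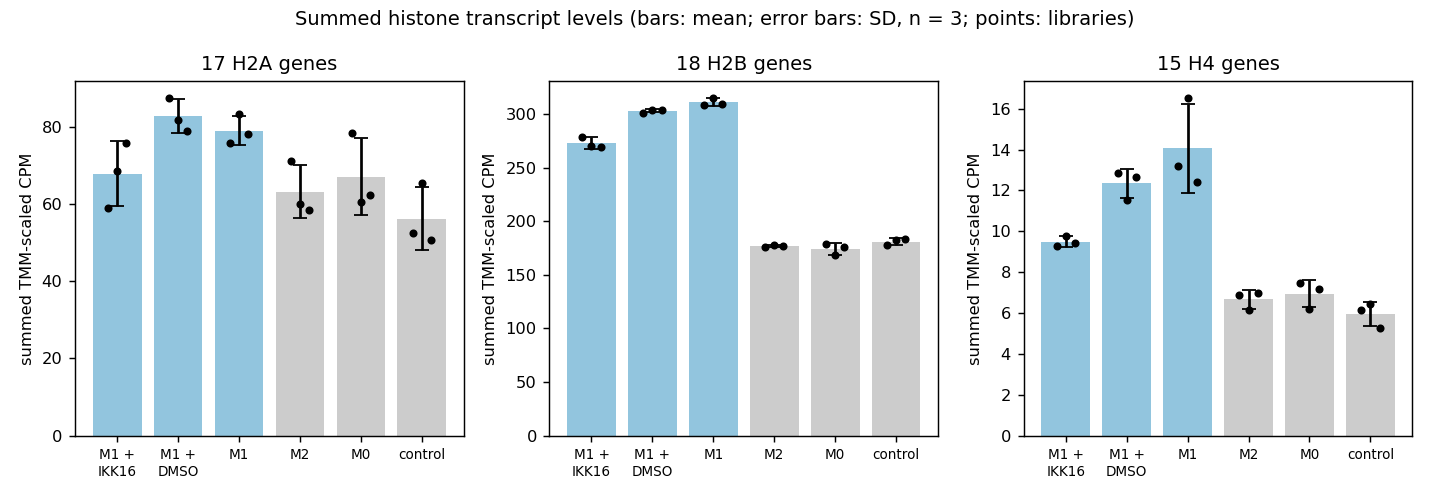
Summed TMM-scaled CPM of the H2A, H2B and H4 genes in 6 groups, with bars for means, error bars for the SD of 3 libraries and points for libraries. All 3 classes average higher in M1 medium than in control, and with IKK16 the H2B genes stand at 273 CPM against 303 CPM with DMSO. The H3 genes are not drawn, nor are the H1 genes, which average 419 CPM in M1 medium and 631 CPM in control.

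Genes of the same cluster moved alike in part of the genome. The split by position was noticed after the values were known and was not tested. In the stretch chr6:25726063-26285534, which holds 34 members, 12 of 14 tested genes rose in M1 medium and none fell, with a median log2 fold change of 1.01. The exceptions were H3C1 and H1-4, which did not pass. In the stretch chr6:27132316-27893891, with 21 members, 4 of 15 tested genes rose and 5 fell, with a median of 0.12. That split was near the one of all 17027 genes tested, of which 32.9% rose and 31.9% fell. On chr1:149782689-149887965, with 11 members, 3 of 4 tested genes rose and H2AC20 fell. The pair H2AC25 and H2BC26 at chr1:228457364-228458558 did not pass.

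**Figure D3:**
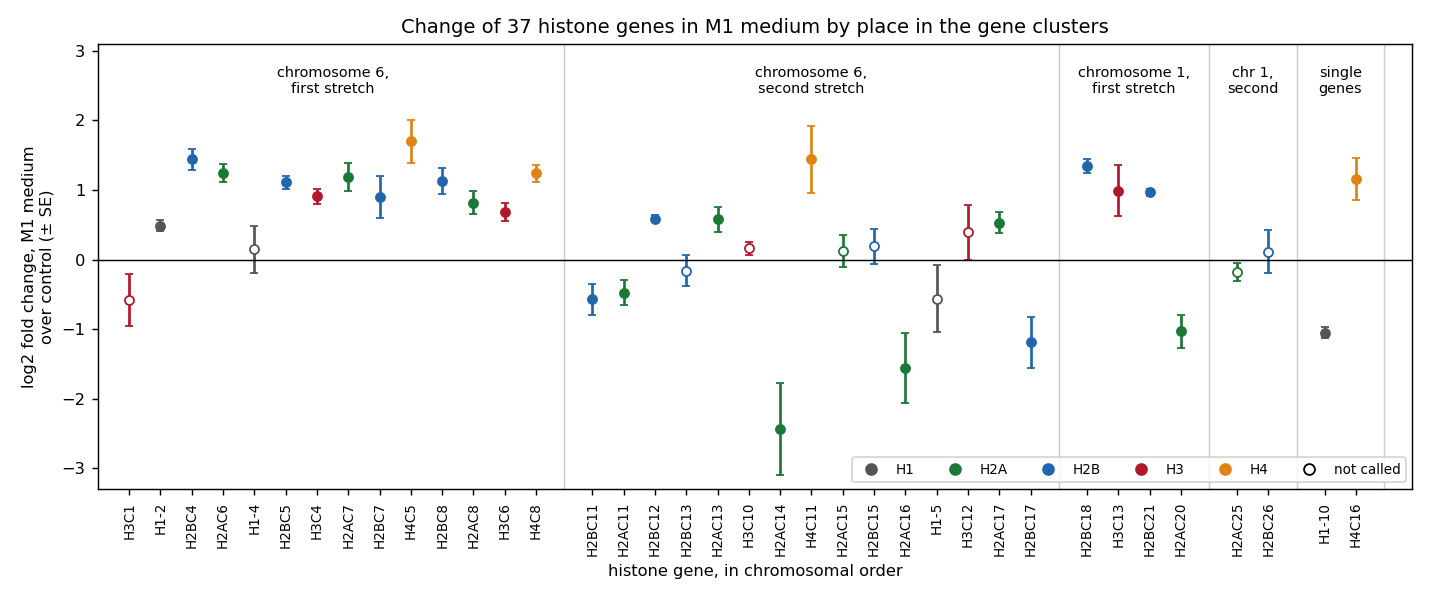
Log2 fold change of 37 tested members in M1 medium over control (vertical axis, error bars SE), ordered along the chromosomes and coloured by histone class, with open points for members that did not pass. Filled points of the first chromosome 6 stretch all lie above 0, whereas the second stretch has filled points on both sides.

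H2A and H2B genes often stand head to head and share the stretch between their start sites, so such pairs show whether neighbours that use the same promoter region moved alike. The 4 stretches below are printed from RefSeq promoters of build GRCh38.p14, on the plus strand, picked after the values were seen: a pair that rose, a pair that fell and the 2 pairs with opposite calls. Capitals mark the letters ATTTGCAT (the octamer bound by OCT1), CCAAT and TATAAA on either strand, with overlapping matches merged.
H2AC6 and H2BC4, chr6:26123927-26124171, H2AC6 to the right: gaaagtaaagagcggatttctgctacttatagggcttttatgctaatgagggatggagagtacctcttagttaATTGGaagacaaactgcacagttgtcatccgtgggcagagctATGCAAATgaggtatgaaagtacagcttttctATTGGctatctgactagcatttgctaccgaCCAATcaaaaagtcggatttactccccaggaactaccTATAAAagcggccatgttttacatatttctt
H2AC11 and H2BC11, chr6:27132796-27133042, H2AC11 to the right: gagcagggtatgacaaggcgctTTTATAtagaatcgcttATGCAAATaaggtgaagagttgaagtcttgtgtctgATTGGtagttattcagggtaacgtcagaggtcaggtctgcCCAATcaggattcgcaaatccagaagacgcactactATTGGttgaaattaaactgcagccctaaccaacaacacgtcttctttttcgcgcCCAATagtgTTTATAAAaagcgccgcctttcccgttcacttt
H2AC20 and H2BC21, chr1:149886683-149886917, H2AC20 to the right: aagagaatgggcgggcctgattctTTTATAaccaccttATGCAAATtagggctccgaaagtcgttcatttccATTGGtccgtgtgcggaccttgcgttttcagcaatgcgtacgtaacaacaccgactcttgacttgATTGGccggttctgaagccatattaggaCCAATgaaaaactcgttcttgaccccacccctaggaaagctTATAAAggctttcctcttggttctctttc
H2AC17 and H2BC17, chr6:27893186-27893424, H2BC17 to the right: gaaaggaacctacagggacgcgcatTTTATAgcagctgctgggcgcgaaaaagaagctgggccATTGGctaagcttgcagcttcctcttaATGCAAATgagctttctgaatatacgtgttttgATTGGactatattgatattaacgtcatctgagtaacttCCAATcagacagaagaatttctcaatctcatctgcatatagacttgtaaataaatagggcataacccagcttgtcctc
H2AC6 and H2BC4, whose starts lie 246 bases apart, rose by 1.24 and 1.44 on the log2 scale in M1 medium. H2AC7 with H2BC7 and H2AC8 with H2BC8, from the same chromosome 6 stretch, also rose together. H2AC11 and H2BC11 fell by 0.48 and 0.57. The start sites of H2AC20 and H2BC21 lie 236 bases apart, yet H2AC20 fell by 1.03 while H2BC21 rose by 0.97. Likewise H2BC17 fell by 1.19 while H2AC17, 240 bases away, rose by 0.53. All 9 stretches between pairs with both genes tested hold 3 or 4 CCAAT matches. The octamer letters stand in all 4 of the stretches whose genes moved in the same direction, in both with opposite calls and in none of the 3 others (H2AC13 with H2BC13, H2AC15 with H2BC15, H2AC25 with H2BC26), where at least 1 gene was not called. TATAAA stands in 3 of the 4, in both with opposite calls and in 1 of the 3. These counts are descriptions of few pairs without a test.

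Over the whole family, promoters were searched on both strands in the 250 bases before the start. The octamer was found there in 14 of 18 H2B genes (77.8%) and 11 of 16 H2A genes (68.8%). It was in 1 of 11 H3 promoters, and in none of 9 H1 and 13 H4 promoters, against 1.66% of 27305 promoters of all genes. The starts of head-to-head pairs lie 194 to 248 bases apart, so a match can be counted for both genes of a pair. The H2A and H2B shares are therefore not separate. The H3 promoter with the octamer is that of H3C4, whose start, at chr6:26199293 on the minus strand, is also that of H2AC7. CCAAT was in every H2A, H2B and H3 promoter, in 8 of 9 H1 and in 3 of 13 H4 promoters, against 33% of all promoters. TATAAA was in 12 of 16 H2A, 12 of 18 H2B, 8 of 11 H3, 7 of 13 H4 and 4 of 9 H1 promoters, against 11.1% of all. Of the 73 members, 67 had a promoter sequence. Such matches are descriptions of letters and not of binding.

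Part of the histone genes that were higher in M1 medium were lower with IKK16. Against M1 medium with DMSO, 10 of 38 members fell and 1 rose (26.3% and 2.63%), where 12.9% of all tested genes fell and 14.4% rose. The members' median log2 fold change was -0.25 and that of all genes was 0.01. This comparison shares no library with that of M1 medium and control. All 10 members that fell with IKK16 were among the 20 that rose in M1 medium: H2AC6, H2AC7, H2AC13, H2BC5, H2BC8, H2BC12, H2BC18, H3C4, H4C8 and H4C16. Among all tested genes that rose in M1 medium, 1682 of 5607 fell with IKK16. All 20 members had an IKK16 log2 fold change below 0, with a median of -0.35, where 71% of the 5607 genes were below 0, with a median of -0.12. Of the 8 members that fell in M1 medium, 1 was below 0, and their median was 0.28. Among all 5426 tested genes that fell in M1 medium, 26% were below 0, with a median of 0.13. These shares are descriptions, and the difference between the members and other genes was not tested.

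H3C4 had 5.91, 6.05 and 5.48 CPM with IKK16 and 8.63, 8.56 and 8.999 CPM with DMSO (log2 fold change -0.59 ± 0.11, edgeR adjusted p = 0.000418). H2AC6 had 21.6, 24.7 and 29.02 CPM with IKK16 and 39.9, 36.9 and 35.1 CPM with DMSO (-0.57 ± 0.12, edgeR adjusted p = 0.0013). H2BC5 had 16.99, 17.02 and 18.5 CPM with IKK16 and 23.7, 21.6 and 21.6 CPM with DMSO (-0.35 ± 0.08, edgeR adjusted p = 0.00346). The groups of these 3 genes did not overlap, and the IKK16 libraries stayed above the highest control library. H2AC13 had 1.91, 2.09 and 1.94 CPM with IKK16 and 3.07, 3.26 and 3.04 CPM with DMSO (-0.66 ± 0.17, edgeR adjusted p = 0.00628). H2AC7 had 2.14, 2.41 and 2.21 CPM with IKK16 and 3.28, 3.77 and 3.77 CPM with DMSO (-0.68 ± 0.20, edgeR adjusted p = 0.0115). The libraries of these 2 genes were apart as well. H2BC8 had 1.75, 1.84 and 1.68 CPM with IKK16 and 2.78, 3.05 and 2.58 CPM with DMSO (-0.68 ± 0.19, edgeR adjusted p = 0.00984), and lost its call without DMSO replicate 2 (-0.61, 0.0518).

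H4C16, at 0.397, 0.573 and 0.305 CPM with IKK16 and 0.842, 0.718 and 0.846 CPM with DMSO, had the largest fall that passed (-0.91 ± 0.30, edgeR adjusted p = 0.0273). It lost its call without IKK16 replicate 1 (-0.87), IKK16 replicate 3 (-0.72), DMSO replicate 1 (-0.87) or DMSO replicate 3 (-0.87). H4C8 fell by 0.36 on the log2 scale, a call lost without IKK16 replicate 2 (-0.35), DMSO replicate 1 (-0.33) or DMSO replicate 3 (-0.35). H2BC12 had 134, 131 and 131 CPM with IKK16 and 145, 146 and 146 CPM with DMSO (-0.14 ± 0.05, edgeR adjusted p = 0.0233), a small difference whose groups did not overlap. Its call was lost without IKK16 replicate 2 (-0.14), IKK16 replicate 3 (-0.14) or any of DMSO replicates 1, 2 and 3 (-0.14, -0.14 and -0.15). H2BC18 fell by 0.28, a call lost without IKK16 replicate 2 (-0.27), IKK16 replicate 3 (-0.21), DMSO replicate 2 (-0.26) or DMSO replicate 3 (-0.29). The H4C16 call was also lost with DESeq2 (adjusted p = 0.0738) and with edgeR without a filter (adjusted p = 0.0645), that of H2BC12 without a filter (edgeR adjusted p = 0.0605) and that of H2BC18 with its longest transcript (-0.57, edgeR adjusted p = 0.0551). Counted over all members without IKK16 replicate 2, 7 members fell and none rose.

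H2AC20 was the member that rose with IKK16, at 1.07, 1.51 and 1.41 CPM against 0.631, 0.658 and 0.731 CPM with DMSO (0.98 ± 0.28, edgeR adjusted p = 0.0112), and its call was lost without IKK16 replicate 2 (0.88, 0.0521). It had fallen in M1 medium. Its head-to-head neighbour H2BC21 had 103, 98.1 and 96.8 CPM with IKK16 and 106, 106 and 107 CPM with DMSO and did not pass (-0.10 ± 0.05, edgeR adjusted p = 0.122). H2BC4 and H4C5, among the largest rises in M1 medium, did not pass either (-0.28 ± 0.14 and -0.69 ± 0.32). H1-10 had 221, 234 and 258 CPM with IKK16 and 259.8, 224 and 228.2 CPM with DMSO, with a log2 fold change of 0.00 ± 0.08. The H1-10 libraries overlapped.

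**Figure D4:**
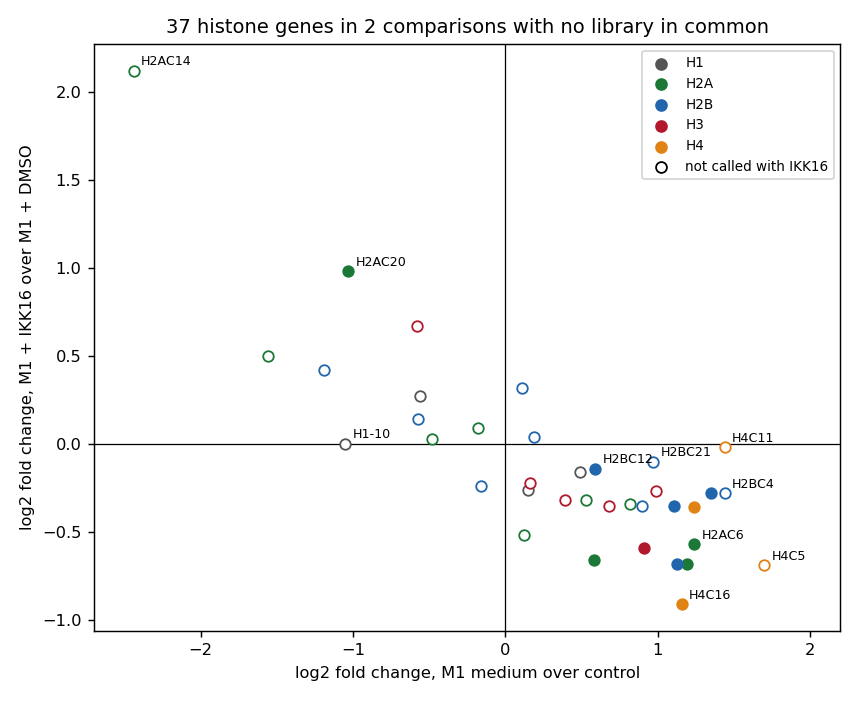
Log2 fold change of 37 tested members in M1 medium over control (horizontal axis) and with IKK16 over DMSO in M1 medium (vertical axis), coloured by class, with filled points for members that passed in the IKK16 comparison. The 10 filled points that fell lie right of 0, and H2AC20 lies at the upper left.

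Some members still differed between M1 medium with IKK16 and control, which held no DMSO. In this comparison 11 members were higher and 4 lower (28.9% and 10.5%), where 27.2% of all tested genes were higher and 25.4% lower. The share that was higher lay near that of all genes, and the share that was lower lay below it. Of the higher members, H2BC8 lost its call in 9 of 14 other settings, H3C4 in 5 and H2AC8 in 3. Of the lower ones, H2AC11 lost its call in 3 of 14 and H2BC17 in 3 of 13. H2BC21 averaged 99.2 CPM with IKK16 and 53.8 CPM in control (0.88 ± 0.05, edgeR adjusted p = 3.46e-13), and H2BC4 averaged 6.22 CPM with IKK16 and 3.095 CPM in control (1.01 ± 0.16, edgeR adjusted p = 1.08e-05). H1-10 averaged 238 CPM with IKK16 and 403 CPM in control (-0.76 ± 0.08, edgeR adjusted p = 4.17e-08). DMSO itself was followed by 1 call among the members: H1-10 was higher in M1 medium with DMSO, at 259.8, 224 and 228.2 CPM, than in M1 medium alone, at 189.8, 184 and 209 CPM (0.29 ± 0.08, edgeR adjusted p = 0.047). Of all tested genes, 2.24% were higher and 2.03% lower with DMSO. The H1-10 call was lost without M1 replicate 1 (0.27), M1 replicate 2 (0.25), DMSO replicate 1 (0.22), DMSO replicate 2 (0.33) or DMSO replicate 3 (0.32), and with the replicate number as a block (edgeR adjusted p = 0.061).

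M2 and M0 media changed few of these genes. In M2 medium 1 of 38 members fell and none rose against control by edgeR, where 3.49% of all tested genes fell and 5.28% rose. At an unadjusted p under 0.05 there were 2 lower and 1 higher, and DESeq2 called 2 lower and none higher. H2BC21 had 43.7, 46.6 and 48.3 CPM in M2 medium and 54.2, 52.2 and 55.1 CPM in control (-0.22 ± 0.05, edgeR adjusted p = 0.0107), a fall where M1 medium gave a rise. Its call was lost without control replicate 1 (-0.22, edgeR adjusted p = 0.0645) or M2 replicate 1 (-0.18, 0.0957), and with the 2 groups fitted alone (-0.21, 0.114). In M0 medium 1 member rose and 1 fell, where 6.68% of all tested genes rose and 5.05% fell. H2AC25 had 39.1, 28.6 and 29.8 CPM in M0 medium and 23.3, 29.2 and 21.1 CPM in control (0.41 ± 0.13, edgeR adjusted p = 0.0458), with overlapping groups. H2BC21 had 49.0, 47.5 and 48.6 CPM in M0 medium and 54.2, 52.2 and 55.1 CPM in control (-0.15 ± 0.05, edgeR adjusted p = 0.0471). The H2AC25 call was lost without M0 replicate 1 (0.26), M0 replicate 3 (0.47), control replicate 1 (0.38) or control replicate 3 (0.32), and with the 2 groups fitted alone (edgeR adjusted p = 0.0837). The H2BC21 call was lost without M0 replicate 1 (-0.16), M0 replicate 2 (-0.13), M0 replicate 3 (-0.15), control replicate 1 (-0.14) or control replicate 3 (-0.12). It was also lost with the 2 groups fitted alone (edgeR adjusted p = 0.148), without a filter (0.127), with the replicate number as a block (0.0582), with the longest transcript (0.0531) and with RLE scaling (0.0505). Across 16195 genes, Spearman's rho between log2 fold change and transcript length was -0.34 for M0 medium, -0.29 for M2 medium and 0.063 for M1 medium against control. With that trend removed, the H2AC25 difference was 0.29 (edgeR adjusted p = 0.0756).

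Set against M2 medium, M1 medium had 18 members higher and 11 lower (47.4% and 28.9%), where 34.3% of all tested genes were higher and 33.2% lower. The M1 libraries are those of the comparison with control. H2BC21 differed by a log2 fold change of 1.19 ± 0.05 (edgeR adjusted p = 5.92e-16), H2AC7 by 1.66 ± 0.21 (edgeR adjusted p = 2.77e-07) and H2BC4 by 1.38 ± 0.15 (edgeR adjusted p = 2.76e-08). H2AC25, with 21.03, 24.3 and 19.3 CPM in M1 medium and 31.2, 27.18 and 27.12 CPM in M2 medium, was lower (-0.40 ± 0.13, edgeR adjusted p = 0.0101), a call lost without M1 replicate 3 (-0.34, 0.0505). H4C11 did not pass (0.04 ± 0.39).

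All 30 genes of an S phase and DNA replication list fell in M1 medium against control, with a median log2 fold change of -1.29. Of all tested genes, 31.9% fell. E2F1, which switches on genes for DNA replication, averaged 21.8 ± 0.314 CPM in M1 medium and 97.1 ± 8.69 CPM in control (-2.15 ± 0.08). CDT1, which licenses replication origins, fell by 2.11, and TK1, which makes thymidine phosphate, fell by 2.03 on the log2 scale. With IKK16, 28 of the 30 rose and none fell against DMSO (median 0.49), where 14.4% of all tested genes rose. In M2 medium 9 rose and none fell against control, where 5.28% of all tested genes rose. The summed level of the list was 2460 to 2560 CPM with IKK16, 1760 to 1800 with DMSO, 1560 to 1620 in M1 medium, 4020 to 4180 in M2 medium, 3840 to 4010 in M0 medium and 3740 to 3940 CPM in control. The part of the cell cycle in the histone values was not tested.

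Of 21 genes for transcription and 3′ processing of histone messages, 8 fell and 2 rose in M1 medium (median -0.07). Among all tested genes 31.9% fell and 32.9% rose (median 0), which also stands beside the lists that follow. SLBP, the stem-loop binding protein, averaged 81.3 ± 2.41 CPM in M1 medium and 142 ± 2.86 CPM in control (-0.81 ± 0.05, edgeR adjusted p = 4.49e-12). CDK2, the kinase that phosphorylates the histone gene coactivator NPAT, fell by 1.40 and CCNE2, a cyclin E, by 0.52 on the log2 scale, while CDK9, a kinase of transcription elongation, rose by 0.51 and CSTF2, a cleavage factor, by 0.20. Of 21 histone chaperones and partners, 13 fell and 3 rose (median -0.34). ASF1B, an H3-H4 chaperone linked to proliferation, fell by 1.95, HJURP, the chaperone of CENPA, by 1.65 and TONSL, which binds newly made H4 in replication repair, by 1.27. DAXX, the chaperone of histone H3.3, averaged 189 ± 3.64 CPM in M1 medium and 86.4 ± 5.01 CPM in control (1.13 ± 0.05), SUPT6H, an elongation factor, rose by 0.34 and RBBP4 by 0.16. Of 13 histone variant genes, 10 were in the table and tested, and 6 fell and 1 rose (median -0.47). CENPA, the centromeric H3 variant, fell by 2.26, H2AX, the variant phosphorylated at DNA breaks, by 1.74 and H2AZ2 by 0.67, while H3-3A rose by 0.18.

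RNAs that carry no poly(A) tail were counted as a measure of what else passed the selection. Of 19 listed, 8 were tested, and 2 rose and 3 fell in M1 medium, where 32.9% of all tested genes rose and 31.9% fell. RN7SL1 and RN7SL2, the RNA of the signal recognition particle, rose by 0.92 and 0.72 on the log2 scale. The telomerase RNA TERC fell by 3.34, RPPH1 by 1.94 and SCARNA10 by 1.44, all from levels under 1 CPM. TERC averaged 0.0543 CPM in M1 medium, under the floor of 3 counts, and 0.594 CPM in control. RPPH1 averaged 0.221 ± 0.108 CPM in M1 medium and 0.875 ± 0.943 CPM in control, where the SD exceeds the mean. SCARNA10 averaged 0.284 CPM in M1 medium and 0.777 CPM in control. The 19 RNAs summed to 57.5 to 121 CPM with IKK16, 82.4 to 113 with DMSO, 97.5 to 115 in M1 medium, 101 to 124 in M2 medium, 65.7 to 73.9 in M0 medium and 40 to 80 CPM in control. RN7SL1 and RN7SL2 made up nearly all of these sums. They averaged 44.2 and 58.7 CPM in M1 medium and 23.4 and 35.8 CPM in control, so the sums say little of the other RNAs. The ranges of M1 and M2 medium overlapped. The part of these RNAs in the histone values was not tested. The luminal prostate markers were present: KLK3 averaged 154 ± 6.77 CPM in M1 medium and 3720 ± 228 CPM in control, and 6 of 10 markers fell and 3 rose. Of 12 macrophage markers, 5 were tested. ITGAM, LYZ and CD68 rose and SPI1 and CSF1R fell, while TYROBP was at 0 in every library and PTPRC at no more than 0.0818 CPM. The 12 markers summed to 255 to 271 CPM with IKK16, 240 to 254 with DMSO and 245 to 265 in M1 medium. The sums were 244 to 267 CPM in M2 medium, 233 to 270 in M0 medium and 228 to 232 CPM in control. CSF1R made up most of these sums, averaging 226 CPM with IKK16, 193 with DMSO, 196 in M1 medium and 224 CPM in control. In M2 and M0 medium CSF1R averaged 249 CPM. The sums therefore say little of the other markers, such as CD68, at 36.9 CPM in M1 medium and 4.93 CPM in control.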

How the data were processed

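RNA selected with poly-T beads was sequenced as 150-base paired ends, per the labels' protocols. The authors deposited expected counts per RefSeq transcript, all multiples of 0.5 and not normalised. The submitters' processing notes list Trimmomatic, BWA 0.7.17, HOMER 4.10 and build hg38. What each tool did, the use of strand and the handling of reads with several matches were not given in the sources used here. Of 70507 transcripts, 69824 were named with an NCBI table of GRCh38.p14 and 349 with GENCODE 29, and 334 without a name (0.0883 to 0.109% of counts) were left out. Each gene was represented by its most counted transcript, and counts were rounded to whole numbers.

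In R 4.3.3, edgeR 4.0.16 was run on all 18 libraries with TMM scaling, filterByExpr and the quasi-likelihood test with 1 mean per group, two-sided, adjusted by Benjamini-Hochberg over 17027 genes at 0.05. CPM values are TMM-scaled. The SE was taken as |log2 fold change|/√F. Replicates differed by more than sampling noise. Lengths were RefSeq spans for genes with 1 transcript and otherwise GENCODE 29 models. The fit was tested on simulated data. Alternatives were DESeq2 1.42.0, RLE scaling, other filters, 2 groups alone, a replicate block, the longest transcript, a removed length trend and each library left out.

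Members and lists were chosen with earlier results of these data known. Values of each library are given for the 8 members most abundant per kilobase, the 6 largest called rises and falls in M1 medium against control, the 4 and 4 with IKK16, and the called members of M0 and M2 medium. Up to 3 genes per direction are named from each list. Other members may be named with their group values. A member that passed the filter is not reported here by name and is not drawn, but enters the counts and sums.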

Additional observations from a re-analysis of the deposited data

How the results depend on the processing

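Against control, M1 medium gave 28 called members, 21 to 29 under the other settings and 24 to 28 with 1 library left out. Other filters change which members are tested, so a lower count under them need not mean lost calls. Against M2 medium the count was 29, or 21 to 31 and 25 to 28. IKK16 against DMSO gave 11, or 9 to 13 and 7 to 10, and IKK16 against control 15, or 14 to 16 and 11 to 14. For M0 medium against control the count of 2 became 0 with the 2 groups alone and 1 with the length trend removed, the longest transcript, no filter, the replicate block or RLE scaling, and 0 to 2 with 1 library left out. For M2 medium the count of 1 became 0 with the 2 groups alone and 2 with DESeq2, and 0 to 2 with 1 library left out. For DMSO against M1 medium alone the count of 1 became 0 with the replicate block, and 0 to 1 with 1 library left out. The cause was not tested. The 87 called results of single members were recomputed under 1195 alternatives in all, of which none reversed the direction and 110 ended the call. Same-numbered libraries of different groups did not deviate together (r from -0.149 to 0.152, and from -0.142 to 0.156 for different numbers). No common effect of the number was seen, but this cannot tell whether the samples were paired when made. With the replicate block, M1 medium gave 28 calls against control and 28 against M2 medium. IKK16 gave 11 against DMSO and 14 against control, and M2 medium gave 1 against control. Members near the floor of 3 counts rest on few reads.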
